A study of Mus musculus with 16 samples.

Results

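The core circadian clock genes examined were the 10 whose products form the transcriptional feedback loops, chosen by name: the activators Arntl (BMAL1), Clock and Npas2, the repressors Per1, Per2, Per3, Cry1 and Cry2, and the nuclear receptors Nr1d1 and Nr1d2 (REV-ERBα and REV-ERBβ). All 10 were among the 46078 genes in the deposited count table, and all 10 passed the filter on low counts that left 15075 genes for testing. Liver RNA was sequenced from 4 groups of 4 libraries: CD fed, CD fast, HFD fed and HFD fast. CD was the control diet and HFD a high-fat diet in which most of the energy came from fat. Mice had been on their diet for 16 weeks, fed mice ate ad libitum, and fasted mice went without food for 16 h before the liver was taken. The strain is written C56B6/J in the labels, and the study's methods describe male C57BL6/J mice that were young adults when the diets began and were kept in a light/dark cycle. No transgene or deletion is given for these mice, and all groups shared strain and housing. The hour at which livers were collected is not given in the sources used here, so time of day cannot be told apart from diet or feeding state in the values below.

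In the mammalian clock, BMAL1 pairs with CLOCK or its relative NPAS2 and switches on genes with E-box elements, among them the Per, Cry and Nr1d genes. PER and CRY proteins then hold the activator pair back, while REV-ERB proteins repress Arntl, Npas2 and Clock through elements that ROR proteins use to activate them. As a result, Arntl and Npas2 messages in mouse liver peak at a different time of day from Per and Nr1d messages, and the timing of meals is known to shift the liver clock.

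Promoter sequences were examined for the elements through which these loops act, and 9 of the 10 genes matched the RefSeq table (build GRCm38.p6), which holds 250 bases before to 50 after each start site, in 13 windows; Per2 had no entry. The motifs searched on both strands were the E-box CACGTG, the E-box variant CACGTT, the D-box TTATGNAA, the ROR/REV-ERB half-element TAGGTCA and the cAMP element TGACGTCA, and none of these overlap one another in the windows shown. Of all 32851 windows of 300 bases, 7.15% held the E-box, 4.68% the variant, 3.38% the D-box, 2.61% the half-element and 1.79% the cAMP element. The 4 windows printed are examples that between them hold each kind of element found, in capitals and 5′ to 3′ on the strand of the gene.
Arntl, chr7:113207261-113207560 (plus strand): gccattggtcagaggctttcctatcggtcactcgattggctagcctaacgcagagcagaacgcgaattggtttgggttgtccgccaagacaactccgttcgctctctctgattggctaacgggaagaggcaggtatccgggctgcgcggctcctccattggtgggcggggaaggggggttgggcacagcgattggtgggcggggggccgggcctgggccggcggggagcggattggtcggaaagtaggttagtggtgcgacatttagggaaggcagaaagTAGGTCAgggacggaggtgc
Per1, chr11:69098699-69098998 (plus strand): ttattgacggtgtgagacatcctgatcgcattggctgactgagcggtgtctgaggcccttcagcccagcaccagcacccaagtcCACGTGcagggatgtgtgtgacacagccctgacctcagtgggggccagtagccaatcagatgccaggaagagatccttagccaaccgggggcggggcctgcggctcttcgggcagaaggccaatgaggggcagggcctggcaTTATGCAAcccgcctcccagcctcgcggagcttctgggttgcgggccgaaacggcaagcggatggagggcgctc
Per3, chr4:151044616-151044915 (minus strand): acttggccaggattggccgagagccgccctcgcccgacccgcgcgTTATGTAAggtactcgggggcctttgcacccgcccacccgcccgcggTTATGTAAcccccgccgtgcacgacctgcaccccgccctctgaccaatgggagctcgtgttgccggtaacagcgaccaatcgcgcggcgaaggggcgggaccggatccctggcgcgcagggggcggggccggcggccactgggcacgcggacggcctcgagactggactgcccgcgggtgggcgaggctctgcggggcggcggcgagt
Cry1, chr10:85185005-85185304 (minus strand): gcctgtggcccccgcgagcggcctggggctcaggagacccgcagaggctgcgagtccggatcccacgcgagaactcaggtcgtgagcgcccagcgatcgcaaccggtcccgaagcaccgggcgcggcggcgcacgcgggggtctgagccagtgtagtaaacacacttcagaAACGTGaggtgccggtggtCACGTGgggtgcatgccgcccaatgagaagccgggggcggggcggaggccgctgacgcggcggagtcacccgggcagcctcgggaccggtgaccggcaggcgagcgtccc
Of the 13 windows of clock genes, 2 held the E-box, 3 the variant, 2 the D-box, 1 the half-element and 0 the cAMP element. The printed Arntl window held TAGGTCA from 30 bases after its start site, and the other windows of Arntl and of Per1 held none of the motifs. The printed Per1 window held an E-box at -166 and a D-box at -24 relative to the start. Per3 held the D-box letters TTATGTAA at -205 and again at -158. Cry1 held an E-box at -60 and the variant at -79, and the variant was also found in the windows of Cry2 and Nr1d1. Such a match describes letters in the window and is not a binding site, and absence of a match says only that these letters are not there.

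Library totals ran from 41364448 to 57583153 counts. Livers were bulk tissue, so fewer cells of a type and less RNA per cell cannot be told apart. The 5 hepatocyte markers summed to between 68790 and 135800 CPM (counts scaled to the library's size) over all libraries, while the 4 pancreas markers summed to at most 1.64 CPM and the 3 adipose markers to at most 1.82 CPM. In the clock genes, the first replicates of CD fed and of CD fast stood apart from the rest of their groups, with high Arntl and Npas2 and low Per3, Cry2 and Nr1d2. Called changes and correlations of clock genes that rest on them are therefore given with and without both. They were picked after the data were seen and for their values in these same genes, so a smaller spread without them follows in part from the choice. The lymphocyte and neutrophil sum ran from 0.885 to 2.42 CPM in CD fed, 1.05 to 2.20 in CD fast, 0.657 to 1.44 in HFD fed and 0.998 to 2.10 in HFD fast livers, and its part in the results was not tested. With group means subtracted, the log2 of that sum had r = 0.46 with Arntl and -0.57 with Per3 over the 16 libraries, as a description. For both genes this was the largest absolute r among the library properties compared. The stellate cell sum had -0.32 and 0.33, for example, and the log2 total count -0.25 and 0.34. The 3 lymphocyte and neutrophil markers were also low, with group means of at most 0.986 CPM each. Libraries that share a group are separate samples in the labels, which do not say more of the animals, and p-values measure the spread between these samples.

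Compared per length (RPKM, the CPM divided by the exon length in kilobases), the level of Nr1d1 was the highest of the 10 genes in all 4 groups and that of Npas2 the lowest. Nr1d1 averaged 51.2 ± 10.5 RPKM in CD fed livers (SD, n = 4), Nr1d2 14.1 ± 2.39, and Per1 6.39 ± 2.49. In all 16 libraries Nr1d1 was above Nr1d2, and Nr1d2 above Per1. In the middle, the order differed by group. Per1 was above Cry2 in 4 of 4 HFD fed libraries with no overlap, but in 2 of 4 CD fed and 3 of 4 CD fast libraries, and Cry2 was above Per1 in 3 of 4 HFD fast libraries. Clock, at 3.64 to 4.81 RPKM, was above Per3, at 0.484 to 2.30 RPKM, in every CD fed library. In CD fast and HFD fed livers Clock exceeded Per3 in 2 of 4 libraries, and in HFD fast livers Per3 exceeded Clock in 4 of 4 with no overlap. At the low end, Arntl averaged 1.81 ± 0.981 RPKM in CD fed and 0.381 ± 0.0597 in HFD fast livers, and Npas2 averaged 0.284 ± 0.221 and 0.0451 ± 0.0268 RPKM in the same groups. Npas2 therefore rested on few reads, from 4 to 161 counts per library, and its changes are the least precise of the set. The exons of Nr1d1 overlap those of Thra, those of Arntl overlap Gm45355 and those of Cry2 overlap D930015M05Rik, each on the opposite strand. Because the strand setting of the counting is not given, reads of these partners cannot be told apart from their own. The same limit holds for Bhlhe40, Btrc, Gsk3a, Usp2, Dbp and Tef, named further below, whose exons also overlap a gene on the opposite strand.

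**Figure D1:**
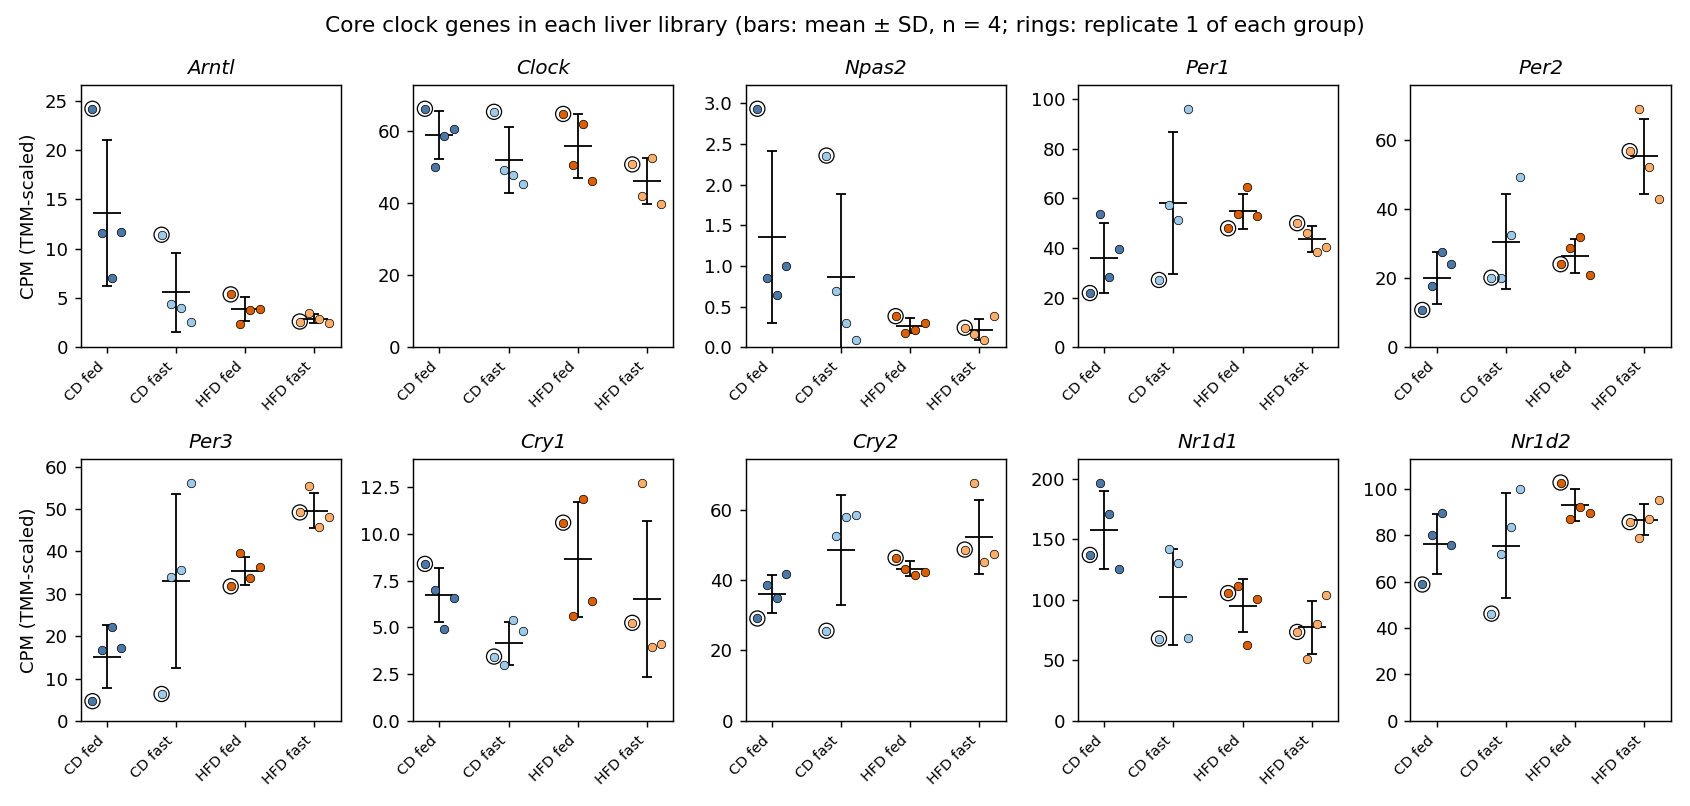
Level of each core clock gene (vertical axis, CPM after TMM scaling) in every library of the 4 groups; points are libraries, bars the mean and SD of 4, and rings mark replicate 1 of each group. Arntl and Npas2 are high and Per3 low in the ringed CD fed and CD fast libraries, and Per2 in HFD fast livers lies above every HFD fed library.

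Arntl (chromosome 7, 113207465 to 113314126, plus strand) encodes BMAL1, for which the liver loop has no full substitute, and it was the clock gene called in both CD fed comparisons. The 4 CD fed libraries held 24.2, 11.6, 7.04 and 11.7 CPM. The CD fast libraries held 11.4, 4.35, 3.96 and 2.50 CPM. All 8 HFD libraries were low, at 5.36, 2.39, 3.82 and 3.89 CPM when fed and 2.60, 3.49, 2.89 and 2.48 CPM when fasted. Each CD fed library exceeded each HFD fed library, whereas CD fed and CD fast overlapped through CD fast replicate 1.

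With fasting in CD mice, Arntl fell by 1.30 on the log2 scale (SE 0.42, edgeR quasi-likelihood test, adjusted p = 0.0330, 95% interval -2.18 to -0.41), and it was the only member called. This comparison called 25.2% of all genes, 13.7% higher and 11.5% lower, and 25.4% did not overlap between the groups, against 1 of 10 and 0 of 10 clock genes. The Arntl call was lost without CD fed replicate 1 (log2 change -0.86, adjusted p = 0.137), CD fast replicate 2 (-1.20, 0.0875), replicate 3 (-1.17, 0.0805) or replicate 4 (-1.06, 0.0865), so it rests on 4 libraries in turn. Without CD fast replicate 1 the change was larger, at -1.92 (adjusted p = 0.00235). It was also lost when only the CD groups were fitted (-1.30, adjusted p = 0.0824). Without both CD first replicates it stood at -1.49 (adjusted p = 0.00356), in a fit that called 17.6% of all genes. With fasting in HFD Arntl was at -0.43 (SE 0.43, adjusted p = 0.567), and the difference between the fasting changes was 0.86 (SE 0.60, adjusted p = 0.437). Several marker sums were lower in the same comparison, with ranges that overlapped: the hepatocyte markers summed to between 101900 and 134700 CPM in CD fed and between 86210 and 107200 CPM in CD fast livers, the 3 cholangiocyte markers to 5.49 to 7.58 and 4.16 to 5.92 CPM, the 5 Kupffer cell markers summed to between 209 and 357 CPM in CD fed and between 139 and 217 CPM in CD fast livers, the 4 sinusoidal endothelium markers to 145 to 168 and 112 to 148 CPM, and the 4 stellate cell markers to 178 to 227 and 112 to 186 CPM. Single markers did not all move with their sum. Among cholangiocyte markers, mean Krt19 was 0.6251 CPM in CD fed and 0.6618 CPM in CD fast livers. Mean Epcam was 0.704 and 1.158 CPM, so both were higher when fasted, while Sox9 was lower (4.886 and 3.155 CPM). Among hepatocyte markers, mean Apoa1, Cps1 and Tat were higher, and Alb and Ttr lower. The part of these markers in the Arntl change was not tested.

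With HFD in fed mice, Arntl fell by 1.82 on the log2 scale (SE 0.42, edgeR adjusted p = 0.0185), to 0.284 of the CD fed level. In this comparison 7.50% of all genes were called, 3.28% higher and 4.22% lower, and 15.7% did not overlap between the groups. Of the clock genes 1 was called and 4 did not overlap: Arntl, Npas2, Per3 and Nr1d1. The call was lost without CD fed replicate 1 (-1.38, adjusted p = 0.0568), HFD fed replicate 2 (-1.64, 0.0501) or HFD fed replicate 3 (-1.81, 0.0537), and without both CD first replicates the change was -1.37 (adjusted p = 0.00835), where 5.79% of all genes were called. In fasted mice the difference was -0.95 (SE 0.43, adjusted p = 0.173), and with CD fast replicate 1 left out it was -0.33.

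Npas2, which can stand in for Clock as the partner of BMAL1, was at 2.93, 0.853, 0.645 and 1.0004 CPM in fed and 2.36, 0.691, 0.295 and 0.0871 CPM in fasted CD livers. In HFD livers it lay between 0.0839 and 0.384 CPM. The HFD fed group was below every CD fed library, at -2.34 on the log2 scale (SE 0.76), and did not pass the edgeR test (adjusted p = 0.0706). It passed with DESeq2 (adjusted p = 0.0160), on the 2 groups alone (0.0314) and with the replicate block (0.0353), but not with limma-voom (0.107), DESeq2 size factors (0.0708), total count scaling (0.0768), upper quartile scaling (0.0742) or no filter (0.0700). It also passed without CD fast replicate 1 (0.0262) or 4 (0.0438), was at -1.64 (adjusted p = 0.223) without CD fed replicate 1, and stood at -1.63 (adjusted p = 0.0811) without both CD first replicates. With HFD in fasted mice it was at -1.95 (SE 0.79, adjusted p = 0.132), or -0.68 without CD fast replicate 1 and without both. With fasting in CD it was at -0.68 (SE 0.68, adjusted p = 0.501), from -1.95 without CD fast replicate 1 to 0.03 without CD fed replicate 1, and -1.25 (adjusted p = 0.134) without both. Clock, the constitutive partner, stayed between 39.6 and 66.1 CPM in all 16 libraries, and its 4 changes lay between -0.27 and -0.07 on the log2 scale, none called.

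Per2 (chromosome 1, 91415982 to 91459324, minus strand), a PER repressor that also responds to metabolic and hormonal signals, was the clock gene called with fasting in HFD mice. HFD fed libraries held 24.1, 28.8, 31.8 and 20.9 CPM. HFD fast libraries held 56.9, 69.2, 52.4 and 42.98 CPM. Every fasted library was above every fed one. The log2 change was 1.07 (SE 0.30, edgeR adjusted p = 0.0371), about 2.10-fold. In this comparison 8.86% of all genes were called, 4.78% higher and 4.07% lower, and 16.7% did not overlap, against 1 and 2 of 10 clock genes. The call was lost on leaving out any of HFD fed replicates 1 to 4 (adjusted p = 0.103, 0.0671, 0.0550 and 0.0710) or HFD fast replicates 1 to 3 (0.0749, 0.0819 and 0.0703), with the log2 change between 0.93 and 1.17 throughout. It stood at 1.06 without both CD first replicates (adjusted p = 0.0175), where 9.33% of all genes were called. The hepatocyte marker sum was lower in HFD fast (68790 to 100100 CPM) than in HFD fed livers (106500 to 135800 CPM) and the sum of 4 erythrocyte markers higher (191 to 401 against 150 to 184 CPM), neither with overlap, and their part in the Per2 change was not tested. In CD mice Per2 was 10.8, 17.8, 27.7 and 24.03 CPM fed and 20.2, 20.2, 32.5 and 49.2 CPM fasted, groups that overlapped, and its log2 change was 0.60 (SE 0.30, adjusted p = 0.149). On leaving out single libraries that CD change ran from 0.27 to 0.80 and was never called. Its edgeR adjusted p was highest, at 0.5085, without CD fast replicate 4. The difference between the fasting changes was 0.46 (SE 0.42, adjusted p = 0.563).

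Per3, a PER protein with a weaker part in the core loop, had the widest fold range over the libraries of any clock gene but Npas2. CD fed libraries held 4.65, 16.8, 22.1 and 17.1 CPM and CD fast libraries 6.34, 33.8, 35.6 and 56.2 CPM. HFD libraries were close together, at 31.7, 39.6, 33.8 and 36.3 CPM fed and 49.2, 55.5, 45.7 and 48.05 CPM fasted. The replicate 1 libraries of both CD groups were the lowest of all 16, and HFD fed and HFD fast did not overlap. No edgeR test passed for Per3 over the 16 libraries: fasting in CD 1.12 (SE 0.47, adjusted p = 0.0915), fasting in HFD 0.49 (SE 0.46, 0.538), HFD in fed mice 1.22 (SE 0.47, 0.128) and HFD in fasted mice 0.59 (SE 0.46, 0.449). Without both CD first replicates, Per3 was called higher with fasting in CD (1.16, adjusted p = 0.000909) and with HFD in fed mice (0.93, adjusted p = 0.00649), while with HFD in fasted mice it was at 0.24 (adjusted p = 0.392). Fitted on the HFD groups alone, its fasting change of 0.49 passed (adjusted p = 0.0173).

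Per1, the PER gene with the most rapid induction by hormones, was 21.8, 53.9, 28.4 and 39.8 CPM in fed CD livers and 27.1, 57.5, 51.4 and 96.1 CPM in fasted ones. In HFD livers it was 47.9, 53.9, 64.7 and 52.8 CPM fed and 49.98, 46.1, 38.3 and 40.4 CPM fasted. With fasting it stood at 0.69 (SE 0.30) in CD and -0.33 (SE 0.30) in HFD on the log2 scale, neither called. The CD change was called by edgeR without CD fed replicate 2 (0.95, adjusted p = 0.0427) or CD fast replicate 1 (0.93, 0.0206), and without both CD first replicates (0.75, 0.0469), whereas it was at 0.33 (0.412) without CD fast replicate 4, the library with the highest level. The diet by fasting interaction of Per1 was -1.02 (SE 0.43, adjusted p = 0.197) by edgeR's quasi-likelihood test over all genes. For that interaction 2.59% of all genes and 0 of 10 clock genes were called, and Per1 alone had an unadjusted p under 0.05, as did 20.2% of all genes. On leaving out both CD first replicates, edgeR called 2.06% of all genes and 0 clock genes for the interaction, 3 of them at an unadjusted p under 0.05, against 18.6% of all genes.

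Cry1, a CRY repressor, was not called over the 16 libraries: it was 8.40, 7.03, 4.90 and 6.57 CPM in fed and 3.44, 2.97, 5.39 and 4.79 in fasted CD livers, and 10.6, 5.63, 11.9 and 6.44 in fed and 5.25, 12.8, 3.96 and 4.12 in fasted HFD livers. Its fasting change in CD was -0.69 (SE 0.36, edgeR adjusted p = 0.167), and it passed when only the CD groups were fitted (-0.70, adjusted p = 0.0489). The share of all genes called in that fit is not given here. With fasting in HFD Cry1 was at -0.41 (SE 0.35, edgeR adjusted p = 0.495), and it was called only without HFD fast replicate 2 (log2 change -0.97, adjusted p = 0.0457). Cry2, its relative, was between 29.1 and 41.8 CPM in CD fed and between 41.4 and 46.3 CPM in HFD fed livers. Its fasting change in CD was 0.43 (SE 0.20, adjusted p = 0.138), and 0.55 (adjusted p = 0.0122) without both CD first replicates.

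Nr1d1, the receptor that represses Arntl, held 137, 197, 171 and 126 CPM in CD fed livers and 105, 111, 62.7 and 101 CPM in HFD fed livers. The CD fed group was above the HFD fed group in every library, and the log2 change was -0.73 (SE 0.27, edgeR adjusted p = 0.113). In CD fast livers it was 67.9, 142, 131 and 68.1 CPM, and the fasting change was -0.62 (SE 0.27, adjusted p = 0.102). Its relative Nr1d2 was between 46.2 and 103 CPM throughout, and no change of it passed, the largest being 0.29 with HFD in fed mice (adjusted p = 0.355). With HFD in fasted mice no clock gene was called and none of the 10 had groups that did not overlap, where 7.70% of all genes were called and 14.0% did not overlap. At an unadjusted p under 0.05, 3 clock genes and 25.9% of all genes passed there, and DESeq2 and total count scaling, which called 13.05% and 13.9% of all genes, each called 1, Per2, at 0.85 and 1.01 on the log2 scale (adjusted p = 0.0350 and 0.0311), as did edgeR without CD fast replicate 4 (1.19, adjusted p = 0.0235). With both CD first replicates left out, edgeR called 0 clock genes there against 4.77% of all genes (2 at an unadjusted p under 0.05, against 22.9%).

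**Figure D2:**
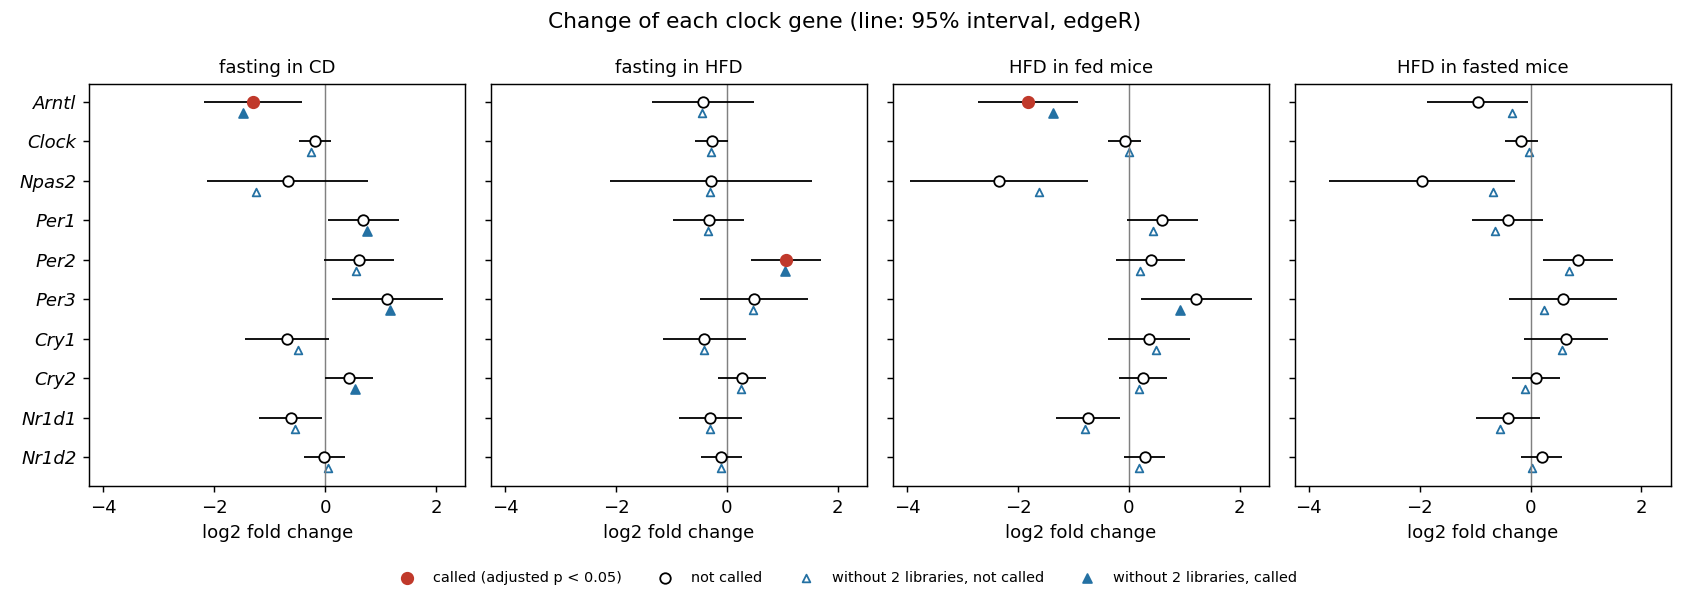
Log2 fold change of each clock gene in 4 comparisons (horizontal axis), edgeR; circles show all 16 libraries with a 95% interval, filled red where called, and triangles the fit without both CD first replicates, filled where called. Arntl falls in fasting CD mice and with HFD in fed mice, and Per2 rises with fasting in HFD mice.

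Between mice of a group, Arntl and Per3 were negatively related in CD livers, while in HFD fast livers replicate 2 was the highest of its group in both. Over 16 libraries with group means subtracted, r between their log2 CPM was -0.91 (Pearson, permutation within groups, 100000 resamples, p = 0.00113, adjusted p = 0.0350 over 45 pairs; Spearman rho = -0.79, p = 0.00323, adjusted p = 0.0949). It was -0.73 without both CD first replicates, which were also the 2 libraries farthest from the Arntl median, and, as a description, -0.98 in the 8 CD and -0.45 in the 8 HFD libraries. By within-group r with Arntl, Per3 was the lowest of 15074 genes, Nr1d2 the 17th lowest and Npas2 the 7th highest. Without both CD first replicates, Per3 was the 32nd lowest, Nr1d2 the 1333rd lowest and Npas2 the 452nd highest.

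Of the 45 pairs of clock genes, 5 passed, 1 positive and 4 negative: Arntl with Npas2 (r = 0.83, permutation adjusted p = 0.0366), Arntl with Per3, Clock with Per3 (-0.65, adjusted p = 0.0397), Npas2 with Per2 (-0.83, adjusted p = 0.0350) and Npas2 with Per3 (-0.86, adjusted p = 0.0350). Passing did not follow the size of r alone: Per3 with Nr1d2 (0.90, permutation adjusted p = 0.0586), Per3 with Cry2 (0.85, 0.0586), Arntl with Nr1d2 (-0.83, 0.0586) and Per1 with Per3 (0.81, 0.0893) did not pass. Over all tested genes the median absolute r was 0.208 with Arntl and 0.239 with Per3, and the share of all gene pairs that would pass was not computed. By Spearman's rho the values of the 5 pairs were 0.63, -0.79, -0.59, -0.76 and -0.64, with permutation p of 0.0218, 0.00323, 0.00867, 0.00782 and 0.00903, and none passed after adjustment. No pair passed without both CD first replicates, in the 8 HFD libraries alone, or without CD fed replicate 1 or 4 or CD fast replicate 1, 3 or 4, and 3 passed without CD fast replicate 2. In the 8 CD libraries alone 7 pairs passed, 2 positive and 5 negative. With 8 libraries, permutation within groups has too few arrangements for a single pair to pass after adjustment over 45 pairs. A pair could pass there only together with others, so the absence of pairs in the HFD libraries cannot decide whether any are related. For these 5 pairs in that order, r was 0.52, -0.73, -0.32, -0.78 and -0.69 without both CD first replicates. Leaving out the 2 libraries farthest from the median of the first gene gave 0.52, -0.73, -0.43, -0.80 and -0.71 for the 5 pairs in that order. Of the 45 pairs, 20 had r of opposite sign in CD and HFD libraries, which was not tested. Per3 with Nr1d2, an extreme case, had r = 0.97 in CD and -0.83 in HFD livers, where the SD of both genes was small (0.128 and 0.108 on the log2 scale), and 0.48 over the 14 libraries without both CD first replicates.

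**Figure D3:**
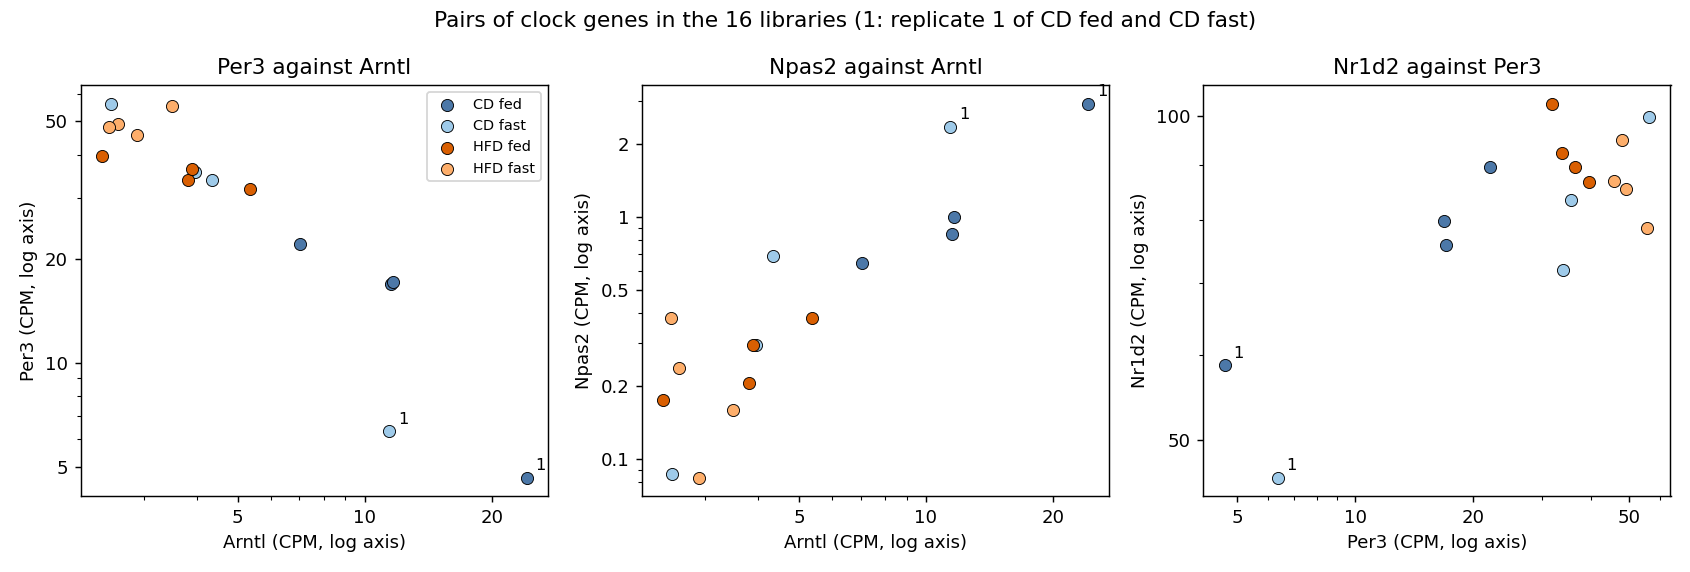
Level of one clock gene against another in the 16 libraries, both axes CPM on log scales, colours by group, 1 marking replicate 1 of CD fed and CD fast. Per3 falls as Arntl rises (r = -0.93 over the 16 libraries, and -0.91 with group means subtracted, which the panels do not show). The libraries marked 1 have the lowest Per3 and Nr1d2 and the highest Npas2.

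**Figure D4:**
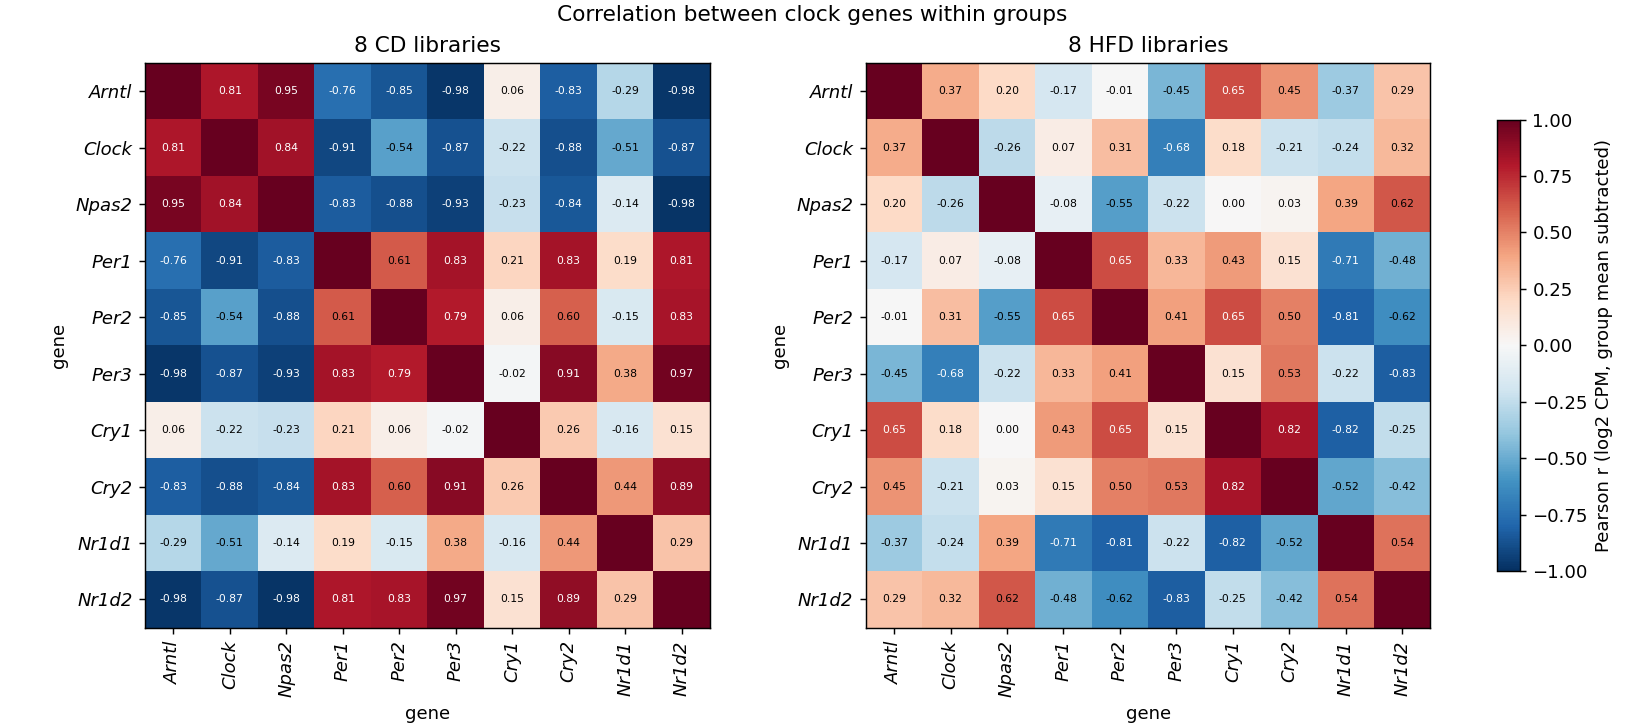
Pearson r between every pair of clock genes (log2 CPM with group means subtracted) in the 8 CD and the 8 HFD libraries, printed in each cell. Arntl and Per3 have r = -0.98 in CD and -0.45 in HFD livers.

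The pooled within-group SD of log2 CPM was higher in CD than in HFD for 8 of the 10 clock genes, the exceptions being Clock and Cry1, while 53.6% of all tested genes were higher in CD. For Per3 it was 1.21 in CD and 0.128 in HFD, a ratio of 9.42, for Per1 0.665 and 0.178, and for Nr1d2 0.382 and 0.108. Without both CD first replicates, 7 of 10 remained higher in CD, against 46.2% of all genes, and the Per3 ratio was 2.53. The ratio then went from 3.74 to 2.65 for Per1, from 3.54 to 1.75 for Nr1d2, from 2.24 to 1.13 for Arntl, from 2.33 to 1.496 for Npas2 and from 2.23 to 0.557 for Cry2. No test was made of this difference.

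**Figure D5:**
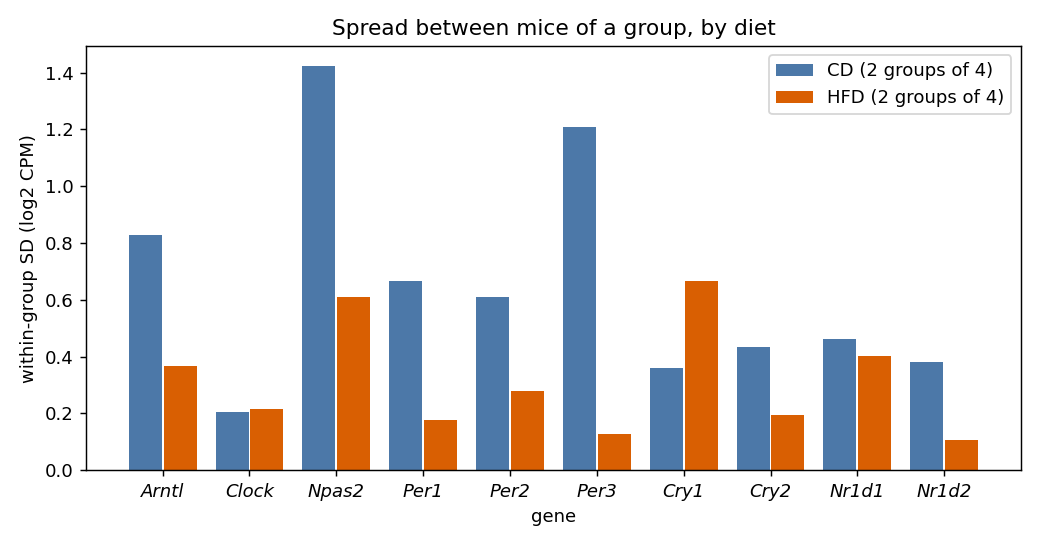
Pooled within-group SD of log2 CPM (vertical axis) for each clock gene in CD and HFD livers, each from 2 groups of 4 libraries. Bars for Per3 are 1.21 in CD and 0.128 in HFD.

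The ratio of Per3 to Arntl, both per length, set the libraries in a wide order. In CD fed livers it was 0.150, 1.14, 2.46 and 1.15, in CD fast livers 0.435, 6.09, 7.04 and 17.6, in HFD fed livers 4.64, 12.99, 6.92 and 7.31 and in HFD fast livers 14.8, 12.4, 12.4 and 15.1. All 4 CD fed libraries were below all 8 HFD libraries, and CD fast replicate 1 was below CD fed replicates 2, 3 and 4.

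Over all 16 libraries, group differences included, the genes whose log2 CPM was most like Arntl among 11003 compared were Smarcd1 (r = 0.95), Sgpl1 (0.91) and Tab2 (0.90), and most opposite were Slc5a6 (-0.95), Per3 (-0.93) and Trp53i13 (-0.93). For Per2 they were Gda (0.95), Wee1 (0.92) and Marveld1 (0.91), and opposite Cbs (-0.91), Mpzl1 (-0.88) and Atp6v1g1 (-0.86). For Nr1d1 they were Trib3 (0.86), Smad7 (0.86) and Smad9 (0.84), and opposite Tmem161b (-0.84), Jarid2 (-0.82) and Gtf2h1 (-0.81). These libraries share groups, and the values are a description.

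Of 23 accessory clock genes (among them E-box repressors, ROR factors, kinases, ubiquitin pathway parts, co-repressors and NAD-linked enzymes), 22 were tested and Rorb had no counts. With fasting in CD, where 25.2% of all genes were called, 4 of the 22 were: Bhlhe40, a repressor of E-box activity, was lower (-1.35, SE 0.28, edgeR adjusted p = 0.00314), and Fbxl21 (0.64, adjusted p = 0.0192), Btrc (0.29, 0.0250) and Gsk3a (0.26, 0.0282) were higher, the first 2 parts of ubiquitin ligases and the last a kinase. All 3 higher calls were lost without CD fed replicate 1 (adjusted p = 0.0590, 0.0579 and 0.0764 in that order) and without both CD first replicates (0.145, 0.140 and 0.0945). Fbxl21 was also lost without CD fast replicate 1 (0.0613), Btrc without CD fed replicate 3 (0.0588), CD fast replicate 1 (0.0766) or CD fast replicate 2 (0.0597), with total count scaling (0.0935), no filter (0.0622) or only the CD groups fitted (0.0523), and Gsk3a with no filter (0.0771) or without CD fed replicate 3 (0.0524), CD fed replicate 4 (0.0621) or CD fast replicate 2 (0.0954). In the other comparisons 0 were called by edgeR, with 7, 4, 4 and 2 at an unadjusted p under 0.05 for fasting under HFD, the diet change in the fed and then the fasted state, and the interaction, against 25.6%, 22.9%, 25.9% and 20.2% of all genes. Ciart and Usp2 were picked from the list after their values were seen, for being low in the CD first replicates, and so add no support to that pattern: Ciart was 0.875 CPM in CD fed replicate 1 and 1.51 CPM in CD fast replicate 1, and Usp2 3.26 and 4.50 CPM. With HFD in fed mice they were at 2.20 (adjusted p = 0.0575) and 1.90 (0.0504). Usp2 passed with DESeq2, total count or upper quartile scaling, either other filter, the fed groups alone and the replicate block (adjusted p from 0.0197 to 0.0484), and Ciart with DESeq2 (0.0255), total count scaling (0.0436) and the fed groups alone (0.0402). Without the libraries they were picked on, they were at 1.86 (0.0211) for Ciart and 1.59 (0.00654) for Usp2.

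Of the 4 output factors, D-box proteins that carry the rhythm to other genes, Nfil3 was lower with HFD in fasted mice (-1.14, SE 0.28, edgeR adjusted p = 0.0219), where 7.70% of all genes were called. The call was lost when only the fasted groups were fitted (-1.14, adjusted p = 0.0806, 0.623% of all genes called) and without CD fast replicate 2 (-0.96, adjusted p = 0.0634), HFD fast replicate 3 (-1.13, 0.0606) or HFD fast replicate 4 (-1.01, 0.0709). With HFD in fed mice Nfil3 was at -0.84 (adjusted p = 0.0710) and Tef at 0.77 (adjusted p = 0.0669), both with groups that did not overlap, where 7.50% of all genes were called and 15.7% did not overlap. There Nfil3 passed with DESeq2 (0.0266), limma-voom (0.0481), the fed groups alone (0.0294) and without HFD fast replicate 2 (0.0359), and Tef with DESeq2 (0.0202), total count scaling (0.0377), the fed groups alone (0.0457) and without CD fast replicate 1 (0.0170). Hlf, at 0.53 (adjusted p = 0.117), passed without HFD fed replicate 4 (0.0421). Dbp, with HFD in fed mice, was at 0.91 (SE 0.44, edgeR adjusted p = 0.235) over the 16 libraries, not called and with groups that overlapped. Without both CD first replicates Tef was at 0.59 (adjusted p = 0.00674) and Dbp at 0.61 (0.0487), and Nfil3 at -0.72 (0.138). Nfil3 overlapped between the fasted groups. The stellate cell marker sum did not, at 112 to 186 CPM in CD fast and 197 to 275 CPM in HFD fast livers, and its part was not tested. Dbp was 12.8, 63.8, 77.6 and 44.9 CPM in fed CD livers and 25.8, 107, 118 and 113 CPM in fasted ones, lowest in replicate 1 of each. Its fasting change in CD was 0.87 (SE 0.44, adjusted p = 0.165), and Tef was at 0.54 (SE 0.24, adjusted p = 0.119) and Hlf at 0.30 (adjusted p = 0.291). Without both CD first replicates Dbp stood at 0.86 (adjusted p = 0.00563) and Tef at 0.57 (0.00462).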

How the data were processed

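Poly(A)-enriched liver RNA was sequenced as paired-end reads. The authors deposited raw counts per gene, one column per library; the submitters' processing notes name CASAVA 1.8.4, TopHat2 2.0.11 and featureCounts with mm10/GRCm38, and the strand setting of the counting is not given in the sources used here. A short or ambiguous gene can lose reads in such counting, and PCR duplicates carry no identifiers, so precision is that of the replicates. All 16 columns were used, and symbols came from GENCODE for 45229 of 46078 genes.

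Counts were scaled by TMM and tested with edgeR 4.0.16 (R 4.3.3) by quasi-likelihood on one group-means model of 4 groups, 12 residual degrees of freedom, with Benjamini-Hochberg adjustment over 15075 genes at 0.05. A gene was called at an adjusted p under 0.05; log2 CPM used a prior count of 2. Comparisons were fasting within each diet, HFD within each feeding state, and their interaction. Correlations used NumPy 2.4.6 with group means subtracted. Alternatives were DESeq2 1.42.0, limma-voom (limma 3.58.1), other scalings and filters, pairs of groups alone, the replicate block, leaving out each library, and leaving out both CD first replicates, which was chosen after seeing the data. The named genes were all 10 members in every comparison, up to 3 called accessory genes in each direction with the smallest p, 4 output factors and the 3 most like and most opposite genes of Arntl, Per2 and Nr1d1; Ciart and Usp2 fall outside this rule and were chosen after their values were seen. Members and lists were chosen with earlier results of these data known. Tests were tried on simulated data first. Library totals of 41364448 to 57583153 counts gave a common coefficient of variation of 19.2% across genes.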

Additional observations from a re-analysis of the deposited data

Results flagged for a closer look

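Of 40 sets of 4 libraries examined (10 genes in 4 groups), 3 held a library whose gap to its nearest neighbour passed Dixon's 95% critical value for 4 samples, where chance alone would mark about 1 in 20. Npas2 in CD fed replicate 1 was at 2.93 CPM, a gap of 0.845 of the range of its group. Cry1 in HFD fast replicate 2 was at 12.8 CPM (0.854 of the range), and Cry2 in the same library at 67.7 CPM (0.844).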

How the results depend on the processing

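Over the 10 clock genes, 5 comparisons and the alternatives run (Npas2 falls below the filter at a mean of 100 counts, and the interaction needs all 4 groups), no called change turned in direction, and 3 of 444 uncalled values changed sign, leaving out single libraries aside. The numbers of genes called moved as follows, and the cause was not tested. With DESeq2, 2 clock genes (Arntl and Npas2) were called for HFD in fed mice and 1 (Per2) in fasted mice, where edgeR called 1 and 0, while DESeq2 called 11.7% and 13.05% of all genes against 7.50% and 7.70%; DESeq2 also called 1 accessory gene and 1 output factor for fasting in HFD (13.3% of all genes), and 2 and 2 for HFD in fed mice. Total count scaling called 1 clock gene and 2 accessory genes with HFD in fasted mice (13.9% of all genes), 2 accessory genes and 1 output factor with HFD in fed mice (8.83%), 1 accessory gene with fasting in HFD (8.78%), and 9 correlated pairs. Upper quartile scaling called 1 accessory gene in each of fasting in HFD (9.07% of all genes) and HFD in fed mice (7.67%), as did the filter at a mean of 100 counts (12.1% and 9.93%). With no filter, 2 accessory genes were called when CD mice fasted (12.3% of all genes) and 1 in the fed diet comparison (3.70%). limma-voom called 1 output factor for HFD in fed mice (7.28%). Fitting only the groups compared called 2 clock genes for fasting in HFD (Per2 and Per3) with 6.95% of all genes. For HFD in fed mice it called 2 clock genes (7.66% of all genes), 2 accessory genes and 2 output factors, and in fasted mice 0 output factors. For fasting in CD it called Cry1 (log2 change -0.70, edgeR adjusted p = 0.0489) and lost Arntl (adjusted p = 0.0824). The share of all genes called in that CD fit is not given here, so its 1 called clock gene has no background beside it.

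The replicate numbers did not pair the libraries throughout. Of 24 same-number pairs, 8 had a correlation over 0.1 (range -0.24 to 0.66), and 5 of 16 libraries correlated best with their own number. Pairs with different numbers ranged from -0.37 to 0.39. The value of 0.66 was that of HFD fed replicate 4 with HFD fast replicate 4. Whether some libraries with the same number were handled together is not given in the labels. The replicate block called 2 clock genes and 1 accessory gene for HFD in fed mice, with 8.01% of all genes, and moved no other count by over 1.5 times.

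Leaving out both CD first replicates called 4 clock genes for fasting in CD (Arntl, Per1, Per3 and Cry2) with 17.6% of all genes, 2 for HFD in fed mice (Arntl and Per3) with 5.79%, 1 accessory gene for fasting in HFD and 3 for HFD in fed mice, and 2 output factors when CD mice fasted and 2 in the fed diet comparison; 0 pairs of genes were correlated, as by Spearman's rho (0) and in HFD libraries only (0), while 7 were in CD libraries only. Leaving out 1 library at a time gave 0 to 5 clock genes for fasting in CD, 0 to 1 for fasting in HFD, 0 to 3 for HFD in fed mice and 0 to 1 in fasted mice, in fits that called 18.7% to 25.96%, 3.31% to 10.02%, 3.37% to 8.29% and 3.51% to 8.90% of all genes. The 5 were called without CD fast replicate 1 (Arntl, Npas2, Per1, Per3 and Cry2; 21.6% of all genes) and the 3 without the same library (Arntl, Npas2 and Per3; 8.04%); 2 (Arntl and Per1) were called for fasting in CD without CD fed replicate 2 (19.8%), and Cry1 replaced Per2 for fasting in HFD without HFD fast replicate 2. In the same fits accessory genes ranged from 1 to 6, 0 to 1 and 0 to 3 for fasting in CD, fasting in HFD and HFD in fed mice, output factors from 0 to 2, 0 to 1, 0 to 1 and 0 to 1 for the first 4 comparisons, and correlated pairs from 0 to 11, the 11 without HFD fed replicate 1. With the 8 libraries of 1 diet, no pair of genes could pass by itself, as given above. Low counts limit Npas2, at 4 to 161 counts per library.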
